A study of Mus musculus with 2 samples.

Results

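The genes described here are 7 mouse transcription factors grouped under lineages of neural crest and mesoderm: Tfap2a, Sox8, Sox11, Nr2f2, Gata6, Tbx5 and Tbx19. The group name is loose, since Tbx19 is best known in the pituitary and Gata6 in endoderm. They were followed in the mesoangioblast clones D16 and D351. All probe sets annotated to 1 of these genes alone were taken, which gave 7 of the 11868 probe sets of the array, 1 for each of 7 among 5928 named genes. The genes were chosen by their measured intensities in these same arrays, which differed between the clones, so their values are given as a description and not as a test. Mesoangioblasts are progenitor cells of the vessel wall obtained by culturing the dorsal aorta of the embryo. Both clones came from aortae of C57BL6 embryos at embryonic day 9.5, were isolated by limiting dilution over mitomycin-treated embryonic fibroblasts, and were then grown on gelatin. Total RNA of each clone was hybridized to 1 Affymetrix U74C oligonucleotide array, in which a probe set is a group of short probes for the same transcript. The title sets the clones against each other, and the labels name smooth muscle differentiation as the subject. Each group is 1 clone and 1 array, so a difference between the clones, between their cultures and between the arrays cannot be told apart.

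Transcription factors bind short DNA motifs and switch sets of genes on or off, and combinations of them define cell lineages. AP-2 and SOX proteins act in the neural crest, a migratory population that leaves the neural tube and contributes to peripheral nerves, pigment cells, the face and the walls of the great vessels. T-box and GATA factors and the nuclear receptor COUP-TFII, the product of Nr2f2, act in heart, limb and vessel mesoderm. In the aorta, smooth muscle is known to arise from several embryonic sources, with crest, heart field and somite among them.

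Intensities were read on a linear scale without units. The median of all values on both arrays, 6.4, served as the floor. A value at or below it is called dim and was raised to the floor before a ratio was formed, and for a gene dim in only 1 clone "at least" marks the resulting fold as a bound. A difference counted as called at 2-fold or more, and log2 ratios are D351 minus D16. The 19 negative controls, probe sets for transcripts of bacteria and yeast, reached 11.2, which lies above the floor. The 9 sense-strand probe sets of the hybridization controls were brighter in D16, by a median of 1.59-fold. All directions are therefore relative to the common scale of the deposited values. With both arrays scaled to these controls, 88.4% of all calls lay towards D351, against 50% as deposited.

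Of the 7 factors, Sox11, Tbx5 and Tbx19 were called higher in D351, and Tfap2a, Nr2f2 and Sox8 higher in D16, while Gata6 was not called. All 7 were above the floor in at least 1 clone. Over all 6828 probe sets measured in that sense, 19.5% were called, 9.74% higher in D351 and 9.75% higher in D16 (of genes at their brightest probe set, 20.5%), and nothing is read from the factors' share, since the difference itself chose them. Sox11 and Tfap2a differed far more than the other five. Sox11 ranked 6th of all measured probe sets towards D351, and Tfap2a 6th towards D16. Only Tfap2a and Nr2f2 had both values above the highest negative control. In bulk RNA, fewer cells of a kind and less RNA per cell cannot be told apart.

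**Figure D1:**
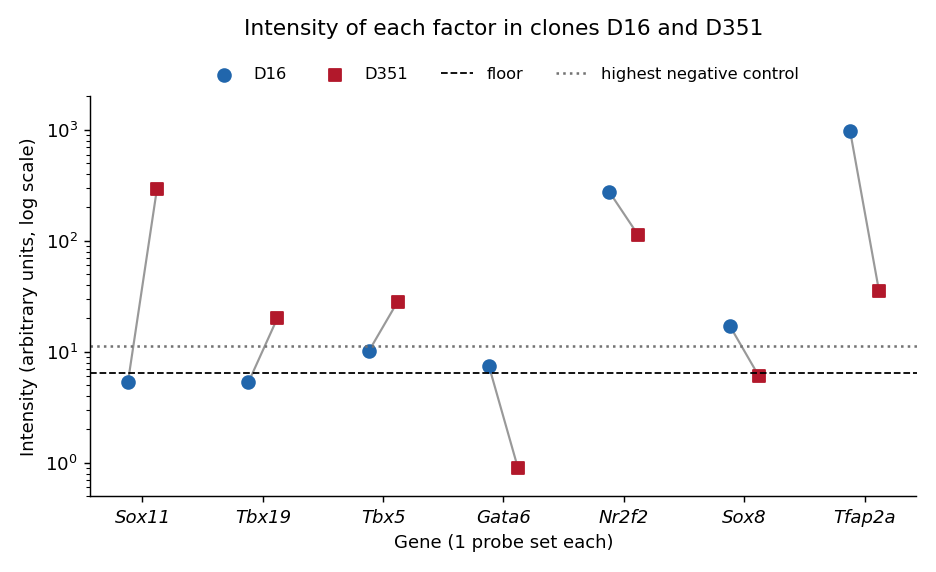
Intensity of each factor in D16 (circles) and D351 (squares) on a log scale, 1 probe set and 1 array each, with the floor of 6.4 (dashed) and the highest negative control of 11.2 (dotted). Sox11, Tbx19 and Tbx5 stand higher in D351 and the other four in D16, and Gata6 lies below the dotted line in both clones.

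Promoter sequences of Sox11 and Tfap2a are shown because these genes carry the largest differences, in opposite directions. Windows of 5 of the 7 genes were read from RefSeq's promoter table for GRCm38.p6, 6 in all, since Tfap2a has 2 listed starts. Tbx5 and Gata6 were not among them. The selection left out the chromosome of Gata6, so whether the table lists that gene was not read. Each window below is the 250 bases before a listed start, 5′ to 3′ on the gene's strand, and for Tfap2a the start lying further upstream was taken. Capitals mark matches to the motifs searched, on both strands and with overlaps allowed.
Sox11, chr12:27342719-27342968, minus strand: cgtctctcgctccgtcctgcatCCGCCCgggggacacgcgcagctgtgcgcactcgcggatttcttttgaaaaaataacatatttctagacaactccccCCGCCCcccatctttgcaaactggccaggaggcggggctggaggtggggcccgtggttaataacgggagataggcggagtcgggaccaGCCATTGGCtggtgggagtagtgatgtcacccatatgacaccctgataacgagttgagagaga
Tfap2a, chr13:40734921-40735170, minus strand: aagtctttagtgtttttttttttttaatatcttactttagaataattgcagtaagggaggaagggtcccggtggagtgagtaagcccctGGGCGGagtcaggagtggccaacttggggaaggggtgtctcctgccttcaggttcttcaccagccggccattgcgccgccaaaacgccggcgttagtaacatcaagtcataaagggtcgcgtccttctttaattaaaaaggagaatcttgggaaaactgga
A set of 7 motifs was searched, namely those of the members' own families and 2 general promoter elements. The general elements were the TATA box (TATAAA) and the GC box that SP1 is known to bind (GGGCGG). AP-2 was represented by its palindromic motif GCCNNNGGC. SOX proteins were represented by ACAATG. For nuclear receptors such as COUP-TFII the half-site AGGTCA was taken. GATA factors were searched as AGATAA, and T-box factors as AGGTGTGA. The capitals in the Sox11 window are 2 GC boxes on the opposite strand and 1 AP-2 motif, and in the Tfap2a window 1 GC box. A GC box stood in 5 of the 6 windows of these genes, including both windows of Tfap2a. Over all genes it stood in 32.7% of 32851 windows. The AP-2 motif stood in 13.7% of all windows. The window of Tbx19 held 1 GATA motif, found in 10% of all windows, beside its GC box. The window of Nr2f2 held none of the motifs and had 1 CG dinucleotide, where the median window had 6 and that of Sox11 had 17. TATAAA occurred in 12.4%, ACAATG in 10.7%, AGGTCA in 14% and AGGTGTGA in 1.1% of all windows, and in none of the 6. A match is a match of letters and does not show binding, and the absence of one says only that these letters are not in the window.

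Tfap2a encodes AP-2alpha, a factor of neural crest and surface ectoderm that is needed for closure of the face and the cranial neural tube. Its probe set read 981 in D16 and 35.6 in D351. It was bright in D16, and in D351 it was still above the highest negative control. The ratio was 27.6-fold towards D16 (log2 ratio -4.78). Scaled to the hybridization controls, it was 17.3-fold. Differences of 16-fold or more were uncommon, with 12 probe sets past that size towards D16 and 25 towards D351.

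No other AP-2 gene was among the listed relatives and cofactors named on the array, so only partners and cofactors were read. Of 17 listed genes, 6 were named on the array and all 6 were measured. Of these, 5 lay towards D16, as Tfap2a did, and 1 towards D351. None was called, where 20.5% of 3934 measured genes were (10.3% towards D351 and 10.2% towards D16), and the median log2 ratio was -0.43 beside -0.022 over all measured genes. Scaled to the sense-strand hybridization controls, the list's median log2 ratio was 0.14, and 1 gene was called towards D351. The brightest was Yeats4, a chromatin reader also known for binding AP-2beta, at 1028 in D16 and 911 in D351. Its other probe sets lay towards D351, at 174 and 190 and at 3.5 and 8.7. Next came the oxidoreductase gene Wwox, at 74.3 and 44.0. The grainyhead factors Grhl1 and Grhl3, which act with AP-2 in surface ectoderm, were near background at 9.4 and 10.6 in D16 and dim in D351. The AP-2 cofactor Cited1 read 26.1 and 21.0, and Kctd1, an inhibitor of AP-2 activity, 7.1 and 10.7.

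Sox11 belongs to the SoxC group of HMG-box factors, with Sox4 and Sox12, which act in neural and mesenchymal progenitors. Its probe set read 5.4 in D16, below the floor, and 292 in D351. It was thus not distinguishable from background in D16 and bright in D351. The difference was at least 45.6-fold, and at least 26.0-fold above the highest negative control. Its SoxC relatives did not follow it. Sox4 read 290.5 in D16 and 137 in D351 where it was brightest, 2.12-fold higher in D16, but a second probe set read 35.1 and 39.5. Sox12 read 75.2 and 35.6, 2.11-fold higher in D16. Both differences towards D16 fell short of 2-fold when scaled to the hybridization controls, at log2 ratios of -0.41 for Sox4 and -0.41 for Sox12. The brightest Sox4 probe set carries a mark in its identifier (an f, g, i, r, s or x), which the array's naming uses where probes are shared or less strictly selected.

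Sox8 is a SoxE factor, a relative of the crest and cartilage regulators Sox9 and Sox10. It read 17.2 in D16 and 6.1 in D351, where it was dim. It was at least 2.69-fold higher in D16. With the highest negative control as the floor the bound was 1.54-fold, under the 2-fold rule, and scaled to the hybridization controls the ratio was 1.77-fold. Sox9 was measured by 3 probe sets, which read 93.1 (D16) and 97.7 (D351), 25.9 and 18.0, and 7.1 and 3.2, none of them called. The endothelial factors Sox17 and Sox18 and the neural factor Sox21 were dim in both clones. Over the SOX and related HMG-box genes other than Sox8 and Sox11, 7 of 24 listed genes were on the array, 4 were measured, 2 were called higher in D16 and 0 in D351, beside 10.2% and 10.3% of all measured genes.

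**Figure D2:**
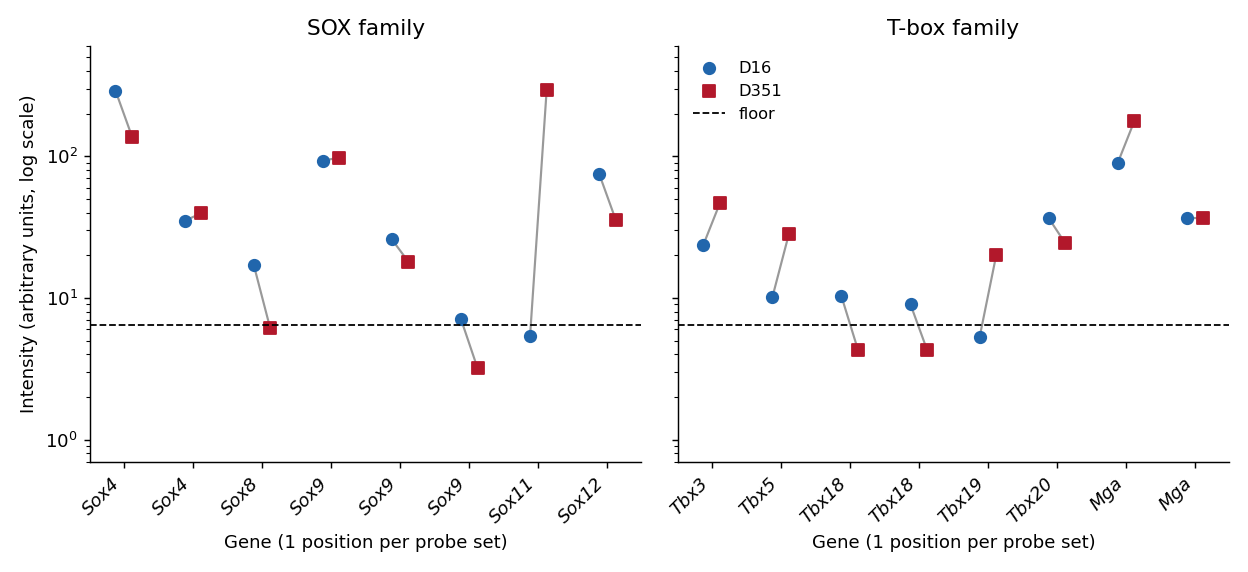
Intensity in D16 (circles) and D351 (squares) of every measured probe set of a SOX gene (left) and a T-box gene (right), on a log scale with the floor dashed; a gene with several probe sets appears several times. Sox11 goes from below the floor to 292, while Sox4 at its brightest probe set and Sox12 are lower in D351, and Tbx3, Tbx5 and Tbx19 are each higher in D351.

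Tbx5 specifies the forelimb and parts of the heart. It read 10.1 in D16, below the highest negative control, and 28.3 in D351. The ratio was 2.80-fold towards D351, and at least 2.53-fold above the highest negative control. Tbx19, known as Tpit, drives the corticotroph lineage of the pituitary. It read 5.3 in D16, where it was dim, and 20.0 in D351, at least 3.13-fold higher in D351. With the highest negative control as the floor the bound was 1.79-fold. Both genes were thus called by values of D351 that were low, and a floor at the 75th percentile of all values, 20.7, left Tbx5 at 1.37-fold and Tbx19 dim in both clones.

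Other T-box genes gave values on both sides. Of 16 listed names other than Tbx5 and Tbx19, 5 genes were on the array and 4 were measured, and none was called. Tbx3, which lies beside Tbx5 on the chromosome and acts in limb and heart conduction tissue, read 23.6 in D16 and 46.5 in D351. This was 1.97-fold, just under the rule, and came from a marked probe set. The list's median log2 ratio was 0.19, and -0.59 among unmarked probe sets. Mga, which pairs a T-box with a MAX-binding domain, read 90.0 and 178 by its brightest probe set, also 1.97-fold, but 36.7 and 36.6 by another. Scaled to the hybridization controls, Tbx3 was 3.14-fold and Mga 3.15-fold higher in D351, and both were then called. Towards D16 lay Tbx20, a cardiac factor, at 36.6 and 24.3, and the epicardial and sinus factor Tbx18, at 10.3 and 4.3 by 1 probe set and 9.0 and 4.3 by the other. The genes that mark the known lineages of the called factors were thin on this array. Of 28 pituitary names 2 were on the array, Gh at 7.9 in D16 and 3.1 in D351 and Isl1, dim in both.

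Nr2f2 encodes COUP-TFII, an orphan nuclear receptor that maintains vein identity and acts in atrial and mesenchymal cells. Its probe set read 276 in D16 and 112 in D351. Both values lay well above the negative controls, so the ratio does not depend on the floor. It was 2.45-fold towards D16 (log2 ratio -1.29), and 1.54-fold when scaled to the hybridization controls, which is under the rule. Of 48 other nuclear receptors listed, 14 were on the array and 7 were measured, and none was called (median log2 ratio -0.12). Nr2c1 (TR2), an orphan receptor, read 152 in D16 and 210 in D351. The retinoic acid receptor gene Rarb read 60.1 and 55.3. Among vein, artery and lymphatic identity genes, 10 of 46 were on the array and 6 measured. Only Angpt1, a ligand of the Tie2 receptor, was called, at 26.2 in D16 and dim at 4.5 in D351, a difference of at least 4.09-fold, or 2.34-fold when the highest negative control was the floor. The Notch ligand gene Jag1 read 2.4 and 8.3, and Notch4 read 12.5 and 10.1.

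Gata6 encodes a zinc-finger factor of endoderm, heart and vascular smooth muscle. It read 7.4 in D16 and 0.9 in D351. Neither value exceeded the highest negative control, and the difference above the floor was at least 1.16-fold. A floor at the 25th percentile, 1.8, would put the bound at 4.11-fold towards D16, between values that negative controls also reached. Its probe set is the only one of the 7 with a mark. Of 17 other genes listed as GATA factors and cofactors, 5 were on the array and 4 measured, with none called. The cofactor gene Zfpm2 (FOG-2) read 110 in D16 and 90.1 in D351, Gata3 read 20.8 and 17.9, and Gatad1 read 14.5 and 28.4, a 1.96-fold difference.

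**Figure D3:**
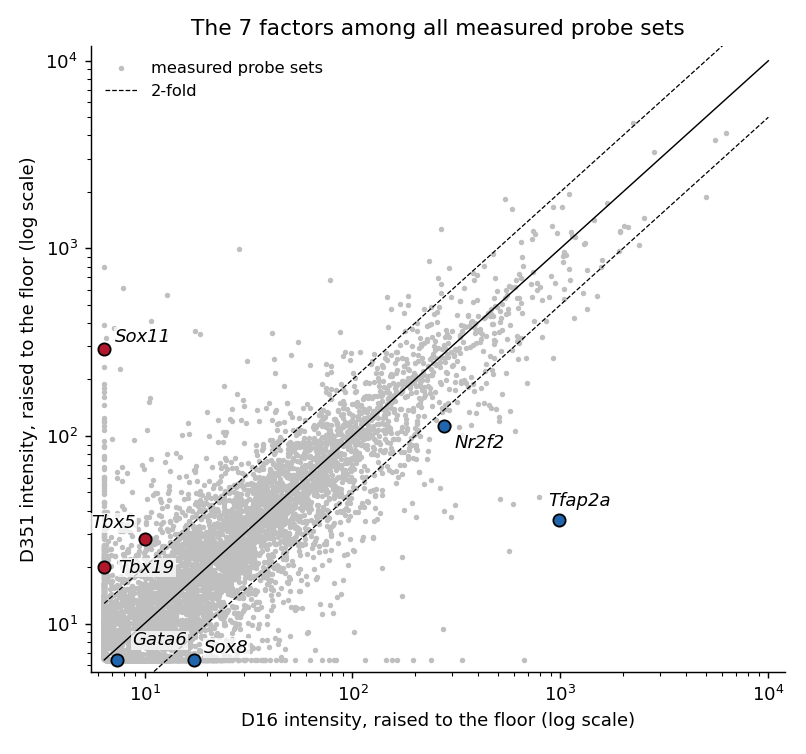
D351 against D16 intensity of 6828 measured probe sets (grey), both raised to the floor of 6.4 and on log scales, with the 7 factors labelled, the line of equality and the 2-fold lines dashed. Tfap2a and Sox11 lie far outside the dashed lines, Tbx5, Tbx19, Nr2f2 and Sox8 just outside, and Gata6 between them in the corner of dim values.

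Genes with several probe sets, which none of the 7 factors has, show how far probe sets agree at a given size of difference. Both probe sets of a gene were read on the same 2 arrays, so this cannot say whether a difference would recur. Second probe sets that were dim in both clones were left out. Among 93 genes whose brightest probe set differed from 2-fold to under 4-fold, as Nr2f2, Sox8, Tbx5 and Tbx19 did, the second measured probe set lay in the same direction for 61 (65.6%). It passed 2-fold in the same direction for 20 (21.5%) and in the opposite direction for 7. Among 9 genes that differed at least 8-fold, as Tfap2a and Sox11 did, 8 had a second probe set on the same side, and for 5 it was past 2-fold. The share called also differed with brightness. Below a mean intensity (geometric, after the floor) of 9.1, where Gata6 lay, 0.4% of measured probe sets were called, a share that the floor itself keeps low. Of measured probe sets with a mean between 9.1 and 16.4, where Sox8 and Tbx19 lay, 37.3% were called, against 22% between 16.4 and 39.7, where Tbx5 lay, and 18.3% above that, with Nr2f2, Sox11 and Tfap2a.

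Genes of the lineages that these factors are known for were then read from lists, with the 7 factors left out. Neural crest genes had 5 measured of 62 listed. Only Crabp2, which carries retinoic acid to its receptor, was called, at 21.4 in D16 and dim at 4.4 in D351, at least 3.34-fold higher in D16. It fell under the rule, at 1.91-fold, with the highest negative control as the floor. The crest genes Ets1 (16.4 in D16 and 21.1 in D351) and Cdh11 (48.5 and 72.8) were measured and not called, although a second probe set of Ets1 read 2.1 and 17.4. Zic1 and Dlx2 were dim in both clones. The list's median log2 ratio was 0.07, and so few crest genes were measured that the label of crest rests on what the factors are known for. In retinoic acid signalling, Crabp2 was again the only call among 5 measured genes, and the retinaldehyde dehydrogenase gene Aldh1a2 read 9.6 and 18.0.

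Cardiac and lateral plate mesoderm genes split between the clones. Of 10 measured, each clone had 2 called higher in it, and the median log2 ratio was -0.15. Fgf10, the limb and lung growth factor that Tbx5 is known to induce, read 25.8 in D16 and 123 in D351, which is 4.76-fold. Its other probe set read 17.9 and 28.6, in the same direction but under 2-fold. The potassium channel gene Kcnj2 read 7.2 and 22.8, 3.17-fold higher in D351. Towards D16 lay Sall4, a zinc-finger factor of stem cells and limb, at 73.7 and 24.5 (3.01-fold), and the homeobox gene Irx1 at 467 and 224 (2.09-fold). Both of these came from marked probe sets, and scaled to the hybridization controls they were 1.89-fold and 1.31-fold. The heart genes Myl7, Tnnt2, Nkx2-6, Isl1 and Heyl and the smooth muscle coactivator gene Myocd were dim in both clones. Limb bud genes, which share Fgf10 and Sall4 with this list, had 10 measured, with 2 called higher in D351 and 1 in D16. Fgf8 was the further one, at 15.8 and 33.4 (2.11-fold), and 1.61-fold with the floor at 20.7. It came from a marked probe set, and among unmarked ones 1 call was left towards D351 and 0 towards D16. Meis1, which is on both lists, read 21.5 and 11.1 by a marked probe set, 1.94-fold towards D16 and not called. The Hedgehog effector genes Gli2 (71.1 and 55.3) and Gli3 (176 and 237) were not called.

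Of 7 measured endoderm genes, the lineage in which Gata6 is best known, 3 were called higher in D351 and none in D16 (median log2 ratio -0.035), where 10.3% of all measured genes were called towards D351. The 3 were the basement membrane genes Lamb1 (6.5 in D16 and 32.3 in D351) and Col4a2 (266 and 580) and the plasminogen activator gene Plat (41.2 and 84.6). Col4a2 and Plat came from marked probe sets, so that 1 call was left among unmarked ones. These genes are also made by many other cells. Towards D16 lay 4 of the 7, none of them called. The largest of these differences were Amn, at 104 and 52.5, and Tmprss2, at 28.5 and 16.6. Amn, at 1.985-fold, was just under the rule. The defining factor genes Sox17, Hnf4g and Nkx2-1 were dim in both clones, and Foxa3 read 28.6 and 26.9.

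**Figure D4:**
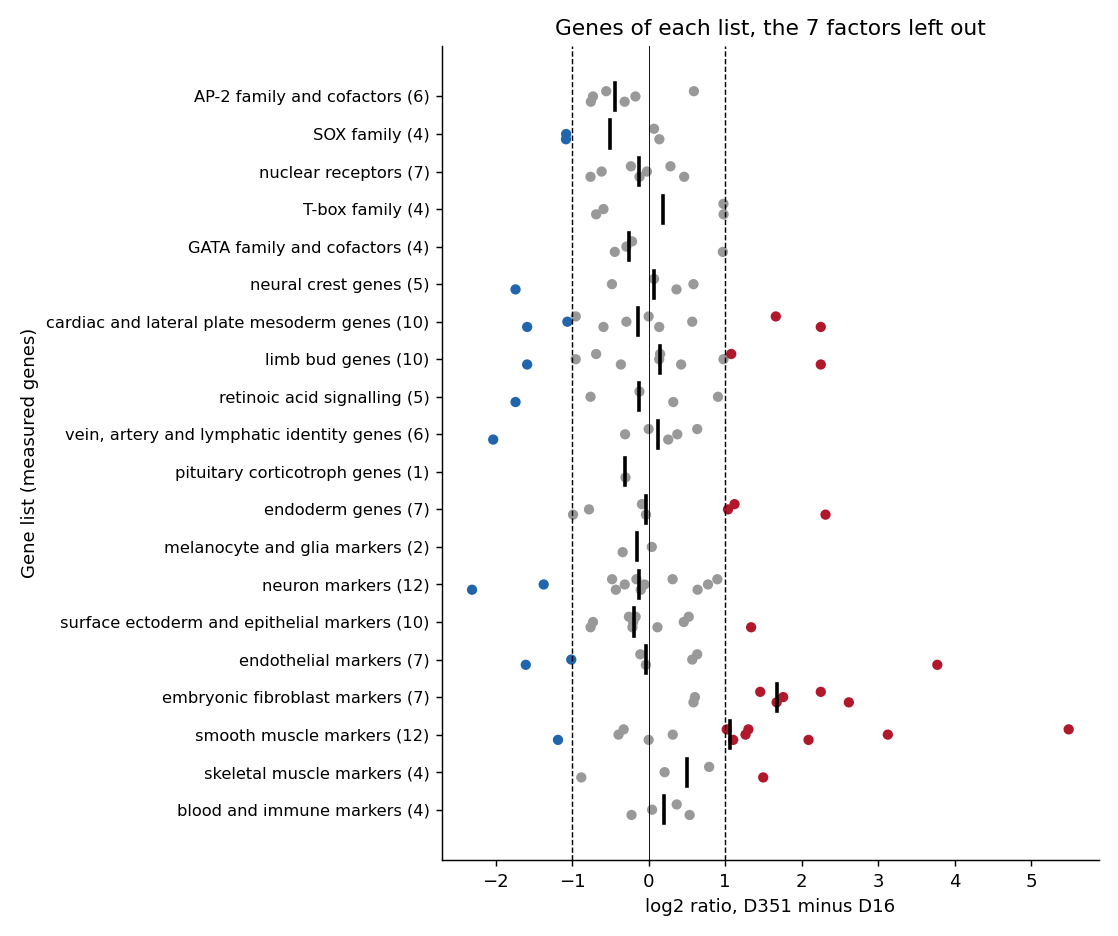
log2 ratios (D351 minus D16) of the measured genes of 20 lists without the 7 factors, 1 point per gene at its brightest probe set, red and blue past 2-fold towards D351 and D16, with the list median as a bar. The medians of the family and lineage lists run from -0.51 (SOX family) to 0.19 (T-box family), and the embryonic fibroblast and smooth muscle lists lie towards D351.

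Among 8 lists of markers of other cell types that the cultures could hold, 2 had 5 or more calls. Of 7 measured embryonic fibroblast markers, the feeder's cell type, 5 were called higher in D351 and none in D16. Cdh11 and Col6a3 (127 in D16 and 193 in D351) were not called, and Col5a2 was dim in both clones. The median log2 ratio was 1.67, and the summed intensity over the 8 on the array was 848 in D16 and 2672 in D351. The called genes included Mfap5 (41.9 and 257), Col5a1 (543 and 1838), Loxl1 (42.9 and 137) and Fgf10. Other probe sets of Mfap5 (2.4 and 2.0) and Col5a1 (1.1 and 2.1) were dim in both clones, and the brightest of Col5a1 was marked. The other probe set of Fgf10 (17.9 and 28.6) lay towards D351 but was not called. Of 12 measured smooth muscle markers, 7 were called higher in D351 and only Flnc in D16 (median log2 ratio 1.06). Their intensities summed to 2712 (D16) and 2535 (D351), or to 327 and 1486 without the bright actin cross-linker gene Flnc, which read 2385 and 1048. The probe set of Flnc was marked, and scaled to the hybridization controls Flnc came to 1.43-fold, under the rule. The largest differences towards D351 were Lmod1 (2.6 and 288), Itga8 (77.6 and 678) and Synpo2 (24.7 and 105). The contractile actin gene Acta2 read 4.7 and 15.4. Pdlim7 was also called (77.5 and 167), but its other probe set read 30.6 and 22.2. Over the alternatives, the genes called towards D351 numbered 3 to 7 for the fibroblast list, with 3 among unmarked probe sets, and 3 to 9 for the smooth muscle list, with 3 under a 3-fold rule. The smooth muscle median log2 ratio was 0.46 when that floor was raised to the highest negative control. These lists lay in the direction of Sox11, Tbx5 and Tbx19. Their part in the differences of the factors was not tested.

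Other marker lists showed few calls. Surface ectoderm and epithelial markers, a lineage of Tfap2a, had 10 measured of 17 on the array, with 1 called higher in D351 (Upk1b, 3.5 in D16 and 16.2 in D351) and 0 in D16. The bound for Upk1b was 1.45-fold with the highest negative control as the floor, and its other probe set was dim in both clones (3.7 and 2.4). Their intensities summed to 335 (D16) and 332.5 (D351). The defining genes Krt14 and Trp63 were dim in both clones. Melanocyte and glia markers, crest derivatives, had 8 of 10 dim in both clones, with Dct, Tyrp1 and S100b among them. The other two were not called, with Pmel at 172 and 177 and Mbp at 8.1 and 4.9. Neuron markers, a lineage in which Sox11 is highly expressed, had 0 of 12 measured genes called higher in D351 and 2 in D16, Celf4 at 262 and 52.9 and Bex1 at 31.6 and 12.2. Both came from marked probe sets, and Bex1 came to 1.62-fold under scaling to the hybridization controls, which also put 3 neuron markers past the rule towards D351. The list summed to an intensity of 567 (D16) and 341 (D351), or to 304 and 288.5 without Celf4. Endothelial markers had 7 measured, with Flt1 called towards D351 (1.3 and 87.6) and Egfl7 (19.5 and 3.8) and Grrp1 (135 and 66.9) towards D16. Egfl7 came to 1.74-fold with the highest negative control as the floor, and Grrp1 to 1.27-fold under scaling to the hybridization controls, both under the rule. Kdr, a receptor of early vascular progenitors, read 1.6 and 9.5. Of 4 measured skeletal muscle markers, Pvalb (98.2 and 277) was called higher in D351. None of 4 measured blood and immune markers was called, with Nkg7 at 102 and 148 and Itga2b at 38.7 and 49.9.

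The genes most like each factor were those with the shortest distance between the pairs of log2 intensities, over 2 arrays and 3541 named genes. Nearest to Sox11 was Lmod1 (2.6 in D16 and 288 in D351, distance 0.017), followed by Tfpi (2.4 and 234) and Hoxc8 (7.6 and 228). Sox11, Lmod1 and Tfpi were all dim in D16, so these distances to Lmod1 and Tfpi rest on D351 alone. Tfap2a had no close match, and the nearest were Gas7 (788 and 47.0, distance 0.51), Rbm28 (590 and 43.5) and Prkg2 (515 and 46). Nearest to Nr2f2 were the thymidine kinase gene Tk1 (276 and 114, distance 0.023), Luc7l and Jak1. Nearest to Tbx5 were Katnal1, Ifi27l2b and Nqo2, at distances from 0.021 to 0.12. Sox8, Tbx19 and Gata6 were also dim in 1 clone, so that their distances rest largely on the other array. The nearest were Ankrd27, Il1rap and Ppp1r35 for Sox8 and Ankrd61, Mdga1 and Ccdc6 for Tbx19, and 86 genes lay within 0.1 of Gata6, with Atl1, Cavin3 and Dclk2 first among ties. With 2 arrays such a distance says only that 2 pairs of values are alike.

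**Figure D5:**
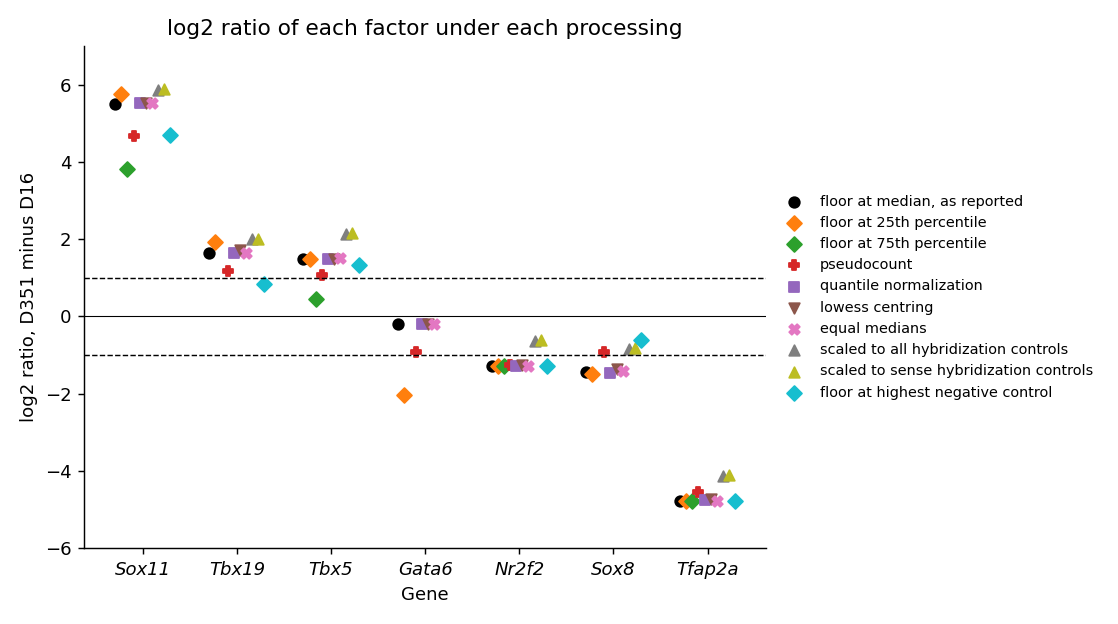
log2 ratio (D351 minus D16) of each factor under the reported processing (black) and 9 others, with the 2-fold lines dashed; a factor dim in both clones under a setting has no point. Sox11 and Tfap2a stay outside the dashed lines in every setting drawn, while Nr2f2, Sox8, Tbx5 and Tbx19 each cross inside in at least 1 or lose their point.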

How the data were processed

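Total RNA of clones D16 and D351 was measured on 1 array each. The table held 1 deposited intensity for each of 11934 probe sets, and how the authors computed it is not given in the sources used here. The 2%-trimmed mean was 20.01 on both arrays, and the intensities were used as deposited. The 66 control probe sets were set aside. Gene names came from the platform annotation, with 7717 probe sets assigned to 1 gene, 150 to several and 4001 unnamed here. Each gene was read at its brightest probe set (5928 genes, 3934 measured). No test was possible with 1 array per clone, which is what limits precision. The genes named were the 7 factors, up to 4 genes called in each direction from each of 20 lists (the 2 brightest where none was), and the 3 most like each factor. Further genes named beside these were chosen after their values were seen. The members and lists were chosen with earlier results of these data known. The alternatives were 3 other treatments of low values, 4 normalizations, a 3-fold rule, unmarked probe sets, the mean over probe sets, and lists without shared genes. A floor at the highest negative control and scaling to the sense-strand controls alone were added after seeing the data. The procedure was tested on simulated data, with changes put only into brighter probe sets. The simulated scatter was smaller than that between probe sets of the same gene here. That run therefore does not cover dim values. Calculations ran in Python 3.11.15 (matplotlib 3.10.9, statsmodels 0.14.6, scipy 1.17.1, pandas 2.3.3, numpy 2.4.6).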

Additional observations from a re-analysis of the deposited data

How the results depend on the processing

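Of 64 values of the 7 factors under the alternatives, 52 kept their direction and their side of the rule, 11 fell under the rule, 1 passed it and 0 turned. A factor dim in both clones under a setting gave no value there and is not among the 64. Sox11 and Tfap2a passed in all. With the floor at the 25th percentile, Gata6 came to -2.04, and 1504 and 1685 probe sets were called towards D351 and D16, against 665 and 666. At the 75th percentile, Tbx5 came to 0.45, 1 factor was called towards D351, the counts were 260 and 261, and Sox8, Tbx19 and Gata6 were dim throughout. Under a floor at the highest negative control, Gata6 was again dim, Tbx19 came to 0.84 and Sox8 to -0.62, with 420 calls towards D16. With a pseudocount, Sox8 came to -0.92. Scaled to all 18 hybridization control probe sets, Nr2f2 came to -0.65, Sox8 to -0.85, 1 factor was called towards D16, and the counts were 1797 and 247. Scaled to the 9 sense-strand ones, the values were -0.62, -0.82, 1, 1836 and 241. Under both, Gata6 was dim in both clones. The 3-fold rule left 279 and 217 calls and 1 factor towards D16, with Nr2f2 (-1.29), Tbx5 (1.49) and Sox8 (-1.43) under it. Among unmarked probe sets the counts were 429 and 409, since fewer were tested. The settings themselves, a floor, a scale, a rule or fewer probe sets, account for these changes. Of 455 values of the other named genes, 0 turned past the rule, 47 fell under it and 14 passed it. No paired analysis was possible because each clone has 1 array. Dim signals limit Gata6, Sox8, Tbx5 and Tbx19.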

Other observations

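Genes beside the 7 factors on the chromosomes were also read, from the order of protein-coding genes in RefSeq's annotation of GRCm38.p6, with 5 on either side of each factor. Of 17 such neighbours on the array, 9 were measured and 1 was called, beside 20.5% of all measured genes. This was Gcnt2, a glycosyltransferase gene next to Tfap2a, at 12.1 in D16 and 30.6 in D351, 2.53-fold towards D351, where Tfap2a was lower. The growth factor receptor gene Igf1r, 4 genes from Nr2f2, read 1340 in D16 and 764 in D351 by a marked probe set. This was 1.75-fold towards D16, the direction of Nr2f2, and was not called. Lmf1, next to Sox8, read 54.0 and 30.4, 1.78-fold towards D16. Sstr5, on the other side of Sox8, read 8.7 and 11.9, towards D351, and neither was called. The neighbours of Sox11 on the array, Kidins220, Allc and Colec11, read at most 9.2 in either clone, below the highest negative control, where Sox11 read 292 in D351.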
